A study of Mus musculus with 4 samples.

Results

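A lamina-associated domain (LAD) is a stretch of the genome that lies against the nuclear envelope (NE), and its edge is the position where the chromatin fiber leaves the lamina. Described here are the KO-only extensions at LAD edges, which are stretches where a LAD of *Tm7sf2*-KO hepatocytes runs past the edge of a WT LAD into chromatin that was interior in WT, and stops before it reaches the next WT LAD. They were chosen by the LAD calls themselves. An extension is a KO-only differential region (DR) that lies in a KO LAD and shares exactly 1 border with it, so that the rest of that KO LAD lies over a WT LAD. Chromosomes 10, 19, X and Y were left out. The rule found 1785 extensions among the 6952 KO-only DRs of the other 17 chromosomes, and the whole series holds 8208 KO-only DRs. The inner border of each of the 1785 is a WT LAD edge by construction, because KO-only DRs are what the subtraction of WT LADs from KO LADs leaves.

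The data are DamID profiles of primary hepatocytes from WT mice and from mice with a knockout of *Tm7sf2*, both on the C57BL/6 background and 12 to 16 weeks old. *Tm7sf2* encodes a sterol reductase of the NE. Lentivirus was left on the freshly isolated cells for 24 h and carried either a Dam methylase fused to lamin B1 (Dam-LaminB1) or the Dam only construct. Each construct in each genotype made up 1 library, 4 in all, from the pooled DNA of 4 mice. Dam methylates the adenine of GATC, so that DNA near the lamina is marked in the Dam-LaminB1 cells, whereas Dam only records how open each stretch is. Only the cells that took up a virus contribute, and they are pooled. A genotype is thus represented by 1 library pair without replicates, so the spread between mice is unknown and WT and KO were not tested against each other. Intervals given with shares are 95% Wilson intervals and cover counting error only. The deposited lists hold positions without signal or read numbers, so the depth at a given extension is unknown, and neither the knockout nor the cell type can be checked from them. The KO libraries were sequenced less deeply than the WT libraries, and the part of depth in any of the values below was not tested.

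Edges of LADs are where transcription starts and lamina contact meet. Active promoters, CpG islands and sites of the insulator protein CTCF are known to lie close outside of LAD borders, and genes just outside tend to point away from the lamina. An edge that moves outward therefore crosses chromatin with a gene content unlike that of the LAD behind it. The members are regions, so their sequence is shown first, at the borders that define an extension. DamID reads the genome in fragments cut at GATC by DpnI, so that LAD borders were placed at GATC with few exceptions, as the borders of 2 extensions show. In each line the GATC of the border is in capitals, in 60 bases of the plus strand of NCBIM37 (the assembly also called mm9).
WT edge of the extension at *Lbr*, chr1:183731623-183731682: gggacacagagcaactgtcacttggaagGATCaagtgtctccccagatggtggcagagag
KO edge of the extension at *Lbr*, chr1:183773709-183773768: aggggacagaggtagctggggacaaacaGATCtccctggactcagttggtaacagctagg
WT edge of the longest extension, at *Foxc1*, chr13:31916249-31916308: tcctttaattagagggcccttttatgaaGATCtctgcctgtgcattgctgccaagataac
KO edge of the longest extension, at *Foxc1*, chr13:31764228-31764287: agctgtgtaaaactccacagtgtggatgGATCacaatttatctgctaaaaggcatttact
A GATC lay at the WT edge of 100% of the extensions and at the KO edge of 99.7%. An extension held a median of 47 GATC sites of the genome sequence (25th to 75th percentile 33 to 75, range 12 to 353). How many of the fragments between them were methylated and read is unknown.

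The extensions were mostly short, and a few were long. Together they covered 45.2 Mb, which was 28.3% of the bases in KO-only DRs of the 17 chromosomes. Their median length was 19.8 kb, with 13.96 kb and 31.1 kb at the 25th and 75th percentile. Of all extensions, 901 (50.5%) were 10 to under 20 kb long, 410 were 20 to under 30 kb, 339 were 30 to under 50 kb, 119 were 50 to under 100 kb and 16 were 100 kb or longer, up to 152 kb. The minimum of 10 kb belongs to the DR lists. The shortest extensions were 10000, 10009 and 10015 bp, and the longest overhangs just under the minimum were 9986, 9983 and 9980 bp. Low-coordinate and high-coordinate edges were extended alike, with 897 and 888 extensions of median length 20.1 kb and 19.5 kb. The whole KO LADs that touched no WT LAD numbered 3750 with a median of 18.3 kb, and the 1417 KO-only DRs inside a KO LAD had a median of 14.8 kb.

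Each extension was then placed among all 13380 edges of the 6690 WT LADs of these chromosomes. The extensions make up 13.3% of these edges, and this is the share against which smaller groups of edges are read below. A further 2143 edges (16.02%) had a KO overhang under 10 kb, with a median of 3.92 kb, 313 ended at the same GATC in both genotypes, and 2032 (15.2%) had drawn back by under 10 kb. At 1423 edges (10.6%) the KO LAD ended 10 kb or more inside the WT LAD. At 4034 edges (30.1%) the KO LAD bridged the gap to the next WT LAD, and 1650 edges belonged to WT LADs with no KO LAD on them. Extended edges thus outnumbered edges lost by 10 kb or more 1.25 to 1, and they held 1.36 times as many bases. This ratio turned to 0.987 when LADs under 20 kb were left out of both lists, and it rose to 2.23 when LADs were joined across gaps of up to 50 kb.

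**Figure D1:**
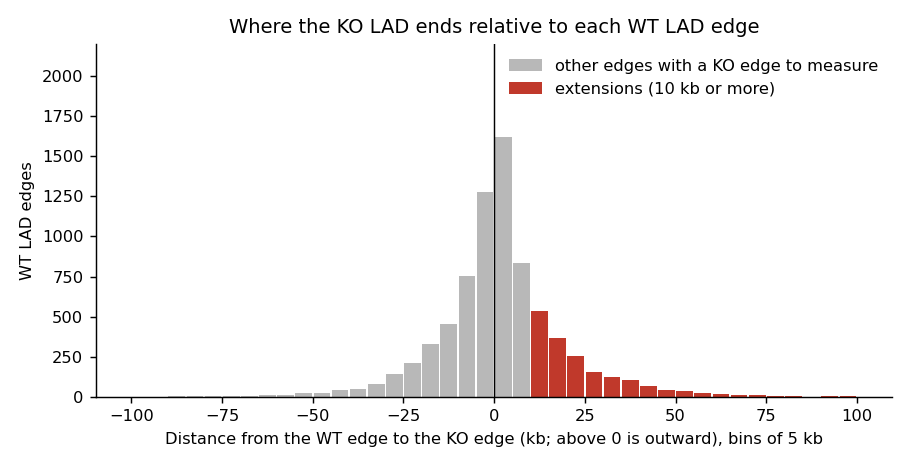
Number of WT LAD edges (vertical axis) by the distance from the WT edge to the KO edge in kb (horizontal axis, bins of 5 kb, outward to the right). Red bars are the extensions, of which 16 reach 100 kb or more and are not drawn. Gray bars are the other edges whose KO edge can be measured, 7 of which lie more than 100 kb inside and are not drawn. The distribution has its peak at 0 and a red tail to the right of 10 kb that falls steadily with distance.

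The share of edges that were extended was lowest on chromosome 9, with 79 of 764 edges (10.3%, 8.38% to 12.7%), and highest on chromosome 2, with 152 of 880 edges (17.3%, 14.9% to 19.9%). Chromosome 1 carried the most extensions, 183 of 1158 edges (15.8%). The balance of extended against lost edges was 2.30 on chromosome 2 and 1.98 on chromosome 3, whereas on chromosome 7 only 91 edges were extended and 117 were lost, a ratio of 0.778. Extended edges outnumbered lost edges on 12 of the 17 chromosomes. The median length stayed between 17.1 kb on chromosome 7 and 23.1 kb on chromosome 12.

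**Figure D2:**
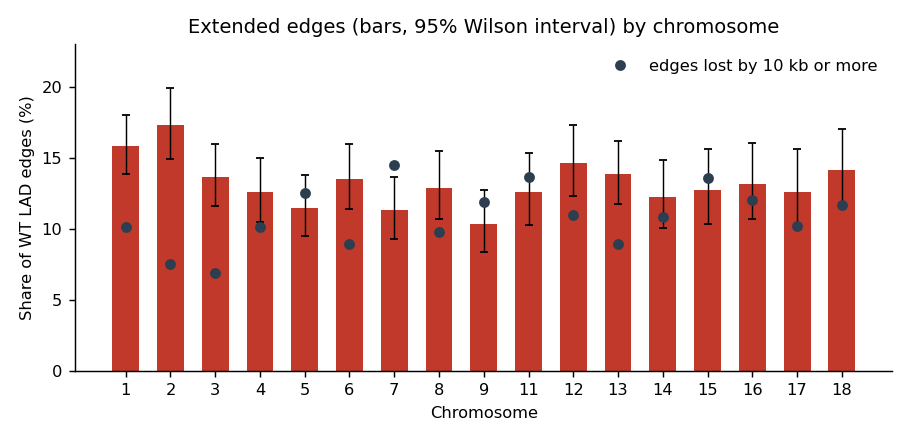
Share of WT LAD edges in percent (vertical axis) on each of the 17 chromosomes (horizontal axis). Red bars with 95% Wilson intervals are extended edges, and dark points are edges lost by 10 kb or more. The bars lie between 10.3% and 17.3%, and the points lie above the bars on chromosomes 5, 7, 9, 11 and 15.

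The extensions sat on 1645 WT LADs, 24.6% of those on the 17 chromosomes, and on 1657 KO LADs. The extended WT LADs had a median length of 29.7 kb, against 40.01 kb for all WT LADs. Of the edges of WT LADs of 10 to 20 kb, 16.6% (15.4% to 17.8%) were extended, and of the edges of WT LADs of 100 to 500 kb 9.24% (8.19% to 10.4%). The longer LADs were bridged to their neighbor more often, at 40.01% of edges against 19.3%, and a bridged edge is by construction no extension. In the KO, an extended WT LAD kept a median of 96.5% of its bases in KO LADs, and 1186 of the 1645 were overlapped by a single KO LAD. Overlap by 2 or more KO LADs was seen in 27.9% of them, against 30.7% of all WT LADs. The latter include WT LADs with no KO LAD on them, which cannot be extended, so the 2 shares have unlike bases. The rule requires a KO LAD over the WT edge, so part of the high share kept is built in. At 310 extensions, however, the KO LAD reached less than 10 kb back behind the WT edge, so that the KO LAD there was mostly new. The extension made up a median of 41.3% of its KO LAD, and more than 50% of it in 692 cases.

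Extension by 10 kb or more at both edges was the less frequent case. It was seen in 140 of the 1645 extended WT LADs, and 128 KO LADs carried an extension at each end. Counted per extension, the other edge of the same WT LAD was extended in 280 of 1785 cases (15.7%), which is close to the 15.2% of edges that were extended among WT LADs with some KO LAD left. The other edge was bridged in 532 cases and lost by 10 kb or more in 238 cases. It had moved outward by under 10 kb in 338 cases and inward by under 10 kb in 363, and it ended at the same GATC in only 34. The most bases were added to a WT LAD of only 13.4 kb on chromosome 3 (132369035 to 132382431), which gained 54.3 kb on one side and 141.9 kb on the other and became 1 KO LAD of 209.7 kb. Its extensions cover all of *Aimp1*, which encodes a scaffold protein of the tRNA synthetase complex, and 91.3% of *Tbck*, a gene for a kinase-like protein with a TBC domain. The next was a WT LAD of 32.6 kb on chromosome 12 (32736641 to 32769267), extended by 107.4 and 47.8 kb, over *Prkar2b*, a regulatory subunit of protein kinase A, with 90.7% of its span in the extension, and over *Hbp1*, a transcriptional repressor, with 25.7%. A WT LAD of 20.0 kb nearby on the same chromosome (32284046 to 32304004) was extended by 65.3 and 75.7 kb over *Slc26a4*, *Bcap29*, *Dus4l* and *Cog5*. All 3 of these WT LADs were kept whole in the KO.

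An extension usually crossed part of the gap to the next WT LAD. A WT LAD lay farther out for 1781 of them. Counted per extension, the gap entered had a median length of 81.3 kb, and a gap entered from both sides counts for each extension. All 6673 gaps between WT LADs, counted per gap, had a median of 23.5 kb. A short gap that is crossed counts as bridged and not as entered. The median extension filled 28.6% of its gap (25th to 75th percentile 11.5% to 53.6%) and left 53.1 kb to the next WT LAD. More than 50% of the gap was filled by 28.1% of the extensions, and less than 10% of it by 22.2%. Of the edges that face a gap of 100 to 500 kb, 32.8% (30.7% to 35.0%) were extended, whereas of those that face a gap of 500 kb or more 21.5% (18.8% to 24.5%) were. In 242 of the 1539 gaps entered, extensions came in from both sides, and together they filled a median of 45.0% of the gap. The longest of these gaps, 7614.7 kb on chromosome 9, was filled by 0.455% only, with extensions of 19.6 kb, over an intron part of *Thsd4*, and 15.0 kb. In the next longest, 3535.2 kb on chromosome 2, the extension of 11.2 kb lay in *Frmd5*, and in the gap of 2769.6 kb on chromosome 8 the extension of 24.4 kb covered 18.9% of *Tex15*. In 697 cases (39.1%) a separate KO LAD lay farther out in the same gap.

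The rule did not use the sequence or the gene content of these stretches themselves, but it set them outside of WT LADs. Each extension was compared with a stretch of the same length on its LAD side (the shared side, 80.9% of it in WT LADs) and with one beyond the KO edge (the outer side, 14.3% in WT LADs and 22.3% in KO LADs). Protein-coding transcription starts numbered 618 in the extensions, or 13.7 per Mb, against 223 or 4.94 per Mb on the shared side and 534 or 11.9 per Mb on the outer side. The 17 chromosomes together hold 8.90 starts per Mb, LADs included. By the rule no extension lies in a WT LAD, so the contrast with the shared side is largely interior against LAD chromatin. No value for all WT interior chromatin is given here. The extensions held more starts per Mb than the shared side on all 17 chromosomes, and more than the outer side on 12 of them. The outer side was 14.3% in WT LADs, and the extensions were in none by the rule. Right at the KO edge the order was the reverse, with 8.74 starts per Mb in the 5 kb inside and 15.9 in the 5 kb outside. CpG islands, counted as joined windows of 500 bases with at least 55% GC and a CpG ratio of at least 0.65, were at 15.3 per Mb in the extensions, 3.81 on the shared side and 11.6 on the outer side. The other KO-only DRs were rich in both as well. Those inside a KO LAD held 21.8 islands and 19.7 starts per Mb, more than the extensions, and the whole KO LADs held 14.6 islands and 12.8 starts per Mb. At the edges lost in the KO there were 0.693 islands and 3.95 starts per Mb. Islands were present in 572 extensions (32.0%).

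Base composition followed in the same direction on the shared side only. The GC content was 42.9% in the extensions, 42.1% on the shared side and 42.7% on the outer side. The difference to the shared side, 0.764 percentage points, was positive on all 17 chromosomes (0.446 to 1.13 points) and in 1147 of 1784 extensions with a value (64.3%). The difference to the outer side was 0.181 points and had no stable sign. It was negative on 3 chromosomes, at -0.152 points with flanks of 10 kb and at -0.0271 points with LADs joined across gaps of up to 50 kb. GATC sites were less dense in the extensions than on the shared side, at 2.37 against 2.63 per kb, and 2.32 per kb on the outer side. GATC density sets how finely DamID samples a stretch, and its part in the LAD calls was not tested. The GC of single extensions ranged from 31.7% to 55.2% with a median of 42.7%.

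The profile of starts had its step at the WT edge. In the 5 kb inside the WT edge of the extensions there were 3.25 starts per Mb, and in the first 5 kb outside of it 12.2, rising to 16.1 at 15 to 20 kb. Edges that moved by under 10 kb had the same step, from 3.34 to 10.3 starts per Mb, with a peak of 14.6 at 5 to 10 kb and 8.12 at 15 to 20 kb. At the KO edge of the extensions the step was smaller, from 8.74 inside to 15.9 outside. Within the extensions, cut into 3 equal parts, the starts were at 15.5 per Mb next to the WT edge, 15.3 in the middle and 10.3 next to the KO edge, and CpG islands at 17.7, 17.7 and 10.6 per Mb. By length, starts were least dense in extensions under 20 kb, at 10.1 per Mb, and most dense in those of 20 to under 30 kb, at 18.1 per Mb.

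**Figure D3:**
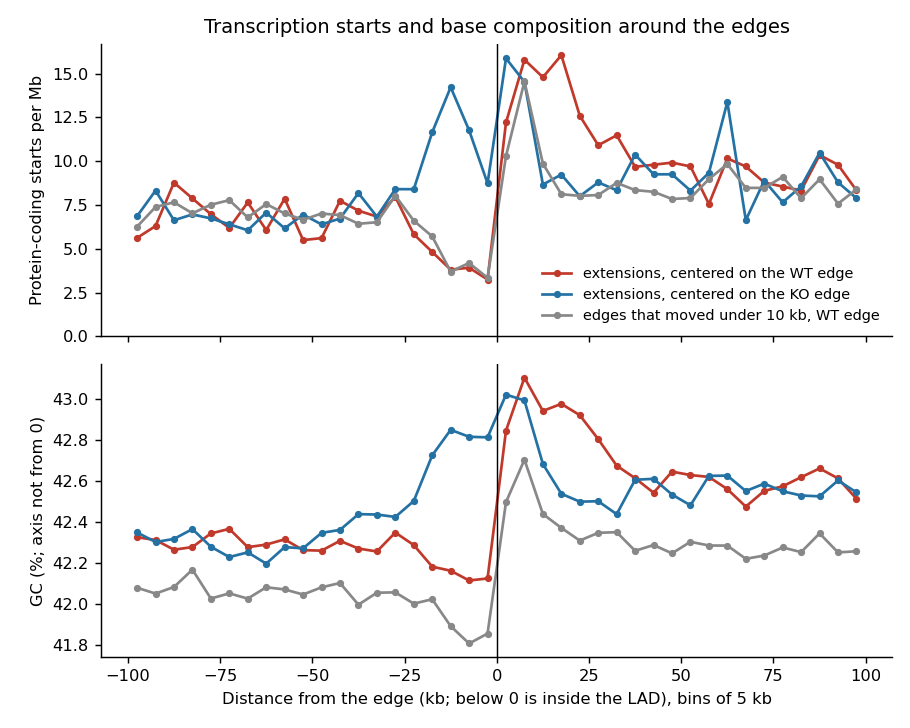
Protein-coding transcription starts per Mb (upper panel) and GC content in percent (lower panel, axis not from 0) against the distance from a LAD edge in kb, in bins of 5 kb, with the LAD to the left of 0. Red points are centered on the WT edge and blue points on the KO edge of the 1785 extensions, and gray points on the 4488 WT edges that moved by under 10 kb. The red and gray curves both step up at 0, and at 15 to 20 kb the red curve is at 16.1 and the gray curve at 8.12 starts per Mb. The blue curve is at 8.74 in the last bin on the LAD side of 0.

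The starts in the extensions were described by promoter type and direction, with no test of the differences. The middle of a CpG island lay within 500 bases of the start for 401 of the 618 starts (64.9%, 61.0% to 68.5%), against 28.7% (23.2% to 35.0%) on the shared side, 57.5% (53.3% to 61.6%) on the outer side and 48.1% of all 19649 genes. The gene pointed away from the LAD for 376 of the 618 starts (60.8%, 56.9% to 64.6%), against 51.6% (45.0% to 58.0%) on the shared side and 53.4% (49.1% to 57.6%) on the outer side. The interval of the direction overlaps those of both flanks, and that of the CpG islands overlaps the outer side but not the shared side. Taking only the nearest start within 20 kb outside the edge, 62.3% (57.8% to 66.6%) pointed away at the WT edges of the extensions, 59.3% (55.9% to 62.6%) at WT edges that moved by under 10 kb and 51.0% (45.8% to 56.1%) at the KO edges. The core letters of the CTCF motif (CCANNAGNNGGC, on either strand) were found in the 2 kb around 9.19% (7.93% to 10.6%) of the WT edges and 10.3% (8.98% to 11.8%) of the KO edges, against 10.3% of all windows of 2 kb. A match of letters is not a bound site.

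Of the 19649 protein-coding genes of the 17 chromosomes, 1130 (5.75%) overlapped an extension by at least 1 base and 618 (3.15%) had their start in one, and the gene groups below are read against these 2 shares. Overlap favors long genes, and the median span was 54.5 kb for the overlapping genes and 15.6 kb for all. Of the 1130 genes, 347 crossed both edges of an extension, 386 crossed only the KO edge, 196 crossed only the WT edge and 201 lay wholly in extensions. For 506 genes (44.8%) no base was in a WT LAD. On the other side of the count, 699 extensions (39.2%) held no protein-coding gene and 433 (24.3%) lay within the span of 1 gene. No extension held more than 4 starts. The extensions with 4 starts were one of 45.1 kb on chromosome 2 with *Prkra*, *Dfnb59*, *Fkbp7* and *Plekha3*, and one of 27.7 kb on chromosome 9 with *Ddx25*, *Pus3*, *Hyls1* and *Pate2*.

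Among the nuclear lamina and envelope genes, 1 of 18 overlapped an extension, and it was *Lbr*. *Lbr* encodes the lamin B receptor, an NE protein that tethers heterochromatin to the lamina and that carries a sterol reductase domain like that of Tm7sf2. The gene (ENSMUSG00000004880.6) spans 183745447 to 183772532 of chromosome 1, minus strand. Its 14 exons were outside of LADs in WT, and the WT LAD behind the extension, of 22.3 kb, ended 13.8 kb past its 3′ end. In the KO this LAD ran on for 42.1 kb over the whole gene and ended 1.21 kb beyond the transcription start, so that all 14 exons were in a KO LAD. It filled 30.2% of the gap of 139.5 kb. The gene points toward the LAD, unlike most starts in extensions. Its promoter is CpG-rich, as the 250 bases before the start show, with CpG in capitals, together with those of *Acvr2a* and *Smad1*, which also start in an extension.
*Lbr* promoter, minus strand of chr1:183772533-183772782: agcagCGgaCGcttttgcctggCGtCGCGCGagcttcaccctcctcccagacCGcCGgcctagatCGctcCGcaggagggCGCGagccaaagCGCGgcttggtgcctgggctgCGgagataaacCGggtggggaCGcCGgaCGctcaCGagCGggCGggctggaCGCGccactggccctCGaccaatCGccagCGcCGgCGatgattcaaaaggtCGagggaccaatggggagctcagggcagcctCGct
*Acvr2a* promoter, plus strand of chr2:48669379-48669628: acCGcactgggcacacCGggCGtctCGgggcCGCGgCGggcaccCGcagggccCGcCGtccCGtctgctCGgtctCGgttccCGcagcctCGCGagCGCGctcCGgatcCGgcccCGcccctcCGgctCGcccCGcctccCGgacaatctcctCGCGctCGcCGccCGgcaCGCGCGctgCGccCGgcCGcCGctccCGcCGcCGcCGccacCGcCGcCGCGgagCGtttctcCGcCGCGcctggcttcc
*Smad1* promoter, minus strand of chr8:81923418-81923667: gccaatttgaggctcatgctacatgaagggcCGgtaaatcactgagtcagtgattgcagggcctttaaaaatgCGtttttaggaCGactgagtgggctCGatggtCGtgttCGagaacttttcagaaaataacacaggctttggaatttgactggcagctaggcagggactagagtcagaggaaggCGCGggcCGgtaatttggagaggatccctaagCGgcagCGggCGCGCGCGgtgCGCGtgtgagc
These 3 promoters hold 31, 49 and 17 CpG. In the same 250 bases, 382 of 614 gene symbols that start in extensions (62.2%, 58.3% to 66.0%) had at least 10 CpG, against 47.4% of 19522 symbols on the 17 chromosomes.

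The activin, BMP and TGF-beta receptors and Smads carry the signals of this growth factor family from the membrane to the nucleus. Of these, 4 of 23 overlapped an extension (17.4%, 6.98% to 37.1%) and 2 of 23 (8.70%) had their start in one. The overlap share was the highest among the plotted gene lists and families, and the lists were chosen with earlier results known. The 4 overlapping genes span 45.7 to 178.5 kb, against a median of 15.6 kb for all genes, and overlap favors long genes. The part of gene length and of the choice of lists in this share was not tested. *Acvr2a*, a type II activin receptor (chromosome 2, 48669629 to 48758789, plus strand), starts only 1.89 kb outside of a long WT LAD, and the KO LAD ran 23.1 kb past that edge over its start and first exon, 23.7% of the span. *Acvr1*, a type I receptor on the same chromosome (58241055 to 58419568, minus strand), was already in a WT LAD for 20.4% of its span, at its 3′ part, and in KO LADs for 34.2%. The extension of 24.7 kb took in 2 of its 13 exons and not its start. *Smad1* and *Smad9* are signal transducers of the BMP branch. *Smad9* (chromosome 3, 54559504 to 54605179) had 5 of 6 exons and 58.5% of its span in an extension of 39.9 kb, and its start lay 18.96 kb beyond the KO edge. *Smad1* (chromosome 8, 81862294 to 81923417) had its start and 1 of 6 exons in an extension of 25.5 kb that covered 7.74% of the span. For *Acvr2a*, *Smad1* and *Smad9* no base was in a WT LAD.

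The shares of the liver lists could not be told from the 5.75% of all genes, which lies within the interval of every such list. None of the 12 hepatocyte genes, 0 of 12 genes of other liver cells, 0 of 32 genes of insulin signaling and glucose production and 0 of 28 acute phase genes overlapped an extension, and the upper Wilson limits for these counts were 24.2%, 24.2%, 10.7% and 12.1%. In cholesterol synthesis it was 1 of 30, *Hsd17b7*, a reductase of the pathway (chromosome 1, 171879666 to 171899372), with 5 of 9 exons and 70.3% of its span in an extension of 18.5 kb and its start outside. In bile acid synthesis and transport it was 2 of 25. *Abcc4*, an organic anion exporter, had 15.7% of its span and 6 of 31 exons in an extension, and *Cyp7b1*, an oxysterol hydroxylase of the alternative pathway, had 10.5% of its span and no exon, in a gene already 85.5% in WT LADs. In fatty acid metabolism it was 1 of 30, *Cd36*, a fatty acid transporter, with 4 of 16 exons and 21.4% of its span in an extension of 22.98 kb. Over the whole gene, 11 exons and 32.8% of the span were in WT LADs, and all 16 exons and 80.3% of the span were in KO LADs, of which the extension is only a part.

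Coagulation and complement genes overlapped in 2 of 39 cases. *Pros1*, which encodes the anticoagulant protein S, had its start in an extension of 25.6 kb but was 74.95% in WT LADs and 77.9% in KO LADs over the whole span. *C9*, the last component of the complement attack complex, had 23.8% of its span in an extension of 15.7 kb, and the 48.7% of its span that was in WT LADs was in none in the KO. Circadian clock genes overlapped in 1 of 22 cases. *Rora*, a nuclear receptor that activates clock genes (chromosome 9, 68501593 to 69236053), had its start 8.58 kb outside of a WT LAD edge and inside an extension of 54.7 kb, with 1 of 11 exons. Among liver-enriched transcription factors it was 1 of 26, *Nr2f1*, an orphan nuclear receptor, with 20.4% of its span at the 3′ end. Among cell cycle genes it was 1 of 36, *Hmmr*, which encodes a spindle protein and hyaluronan receptor (chromosome 11, 40514890 to 40546939), with 17 of 21 exons and 69.4% of its span in an extension of 55.2 kb and its start 9.81 kb beyond the KO edge. Of the neuronal adhesion and synapse genes 3 of 46 (6.52%) overlapped, namely *Dlgap1*, *Dscam* and *Robo1*. Of these, *Robo1*, an axon guidance receptor, had its start in one of 3 extensions that it overlapped, and all of its 29 exons were in KO LADs against 15 in WT LADs. *Dscam* went from 27 exons in WT LADs to 10 in KO LADs in spite of its extension. *Glrx*, *Mal2* and *Tmem64* also overlapped extensions of 14.9, 10.4 and 31.8 kb, with 67.7%, 6.37% and 45.5% of their spans, and had no base in a WT LAD.

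**Figure D4:**
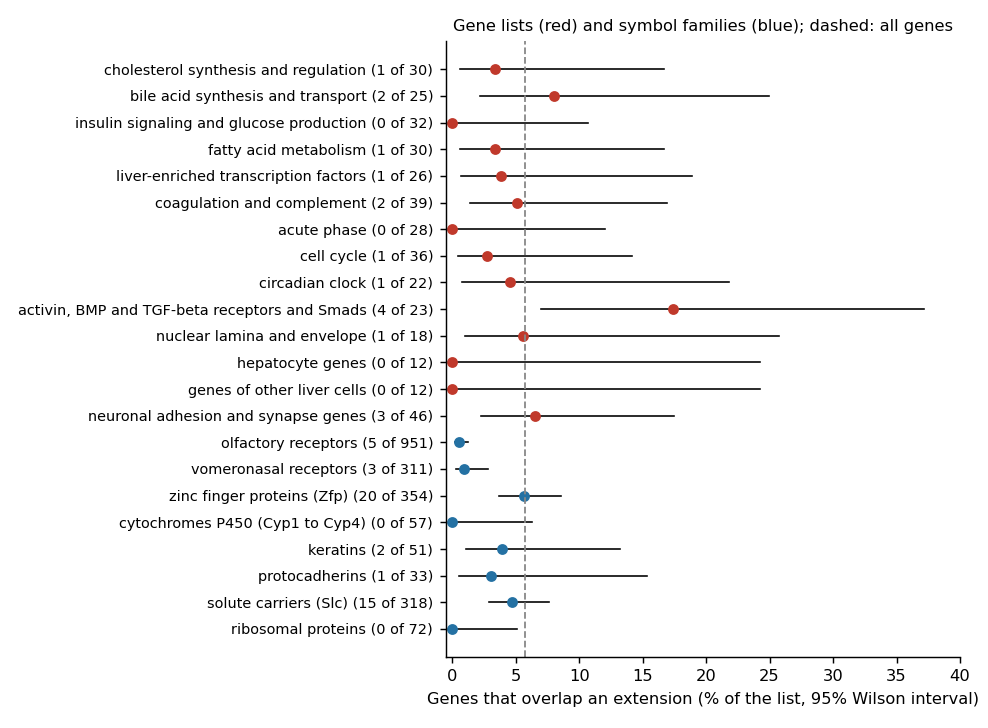
Share of each gene list in percent (horizontal axis) that overlaps an extension, with its 95% Wilson interval. Red points are lists written for this work, blue points are families taken by gene symbol, the numbers stand beside the names, and the dashed line is the 5.75% of all protein-coding genes. The point of the activin, BMP and TGF-beta list lies farthest right at 17.4%, and those of the olfactory and vomeronasal receptors lie near 0.

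Olfactory and vomeronasal receptor genes were scarce in the extensions. By the rule, a gene that lies wholly in a WT LAD cannot overlap one. How many genes of these families lie in WT LADs is not given here. Of 951 olfactory receptor genes only 5 (0.526%, 0.225% to 1.22%) and of 311 vomeronasal receptor genes only 3 (0.965%, 0.329% to 2.80%) overlapped one. Of 354 *Zfp* genes, which encode zinc finger proteins, 20 (5.65%) did, close to the share of all genes. None of 72 ribosomal protein genes and none of 57 genes of cytochrome P450 families 1 to 4 did, with upper limits of 5.07% and 6.31%. Solute carriers overlapped in 15 of 318 cases (4.72%), keratins in 2 of 51 and protocadherins in 1 of 33.

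The 10 longest extensions overlapped few protein-coding genes. The longest, of 152.0 kb on chromosome 13, ran from 31764258 to 31916279, filled 22.7% of its gap and took in *Foxc1*, a forkhead transcription factor of mesenchymal development, whose single exon starts 17.8 kb outside of the WT edge. Part of *Gmds*, an enzyme of GDP-fucose synthesis, lay in it as well. Next came 141.9 kb at *Tbck* on chromosome 3, and 136.2 kb on chromosome 1 within *Pam*, a peptide-amidating enzyme, of which 51.5% of the span and 14 of 26 exons were in extensions. Of the 26 exons of *Pam*, 11 were in WT LADs and all were in KO LADs. The extension of 131.1 kb on chromosome 12 covered all of *Tspan13*, a tetraspanin, and of *Gm5434*, 65.2% of *Agr2*, a protein disulfide isomerase of the ER, and 55.4% of *Bzw2*. The extension of 130.2 kb on chromosome 16 held the start and 14 of 24 exons of *Senp7*, a SUMO protease, with 83.5% of its span. One of 124.2 kb lay in *Pde4d*, a cAMP phosphodiesterase, and held all 10 exons of its annotated main transcript. *Ero1lb*, a thiol oxidase of the ER, and *Gm2399* were in the extension of 112.0 kb on chromosome 13, and *Bbx*, an HMG box protein, in that of 111.2 kb on chromosome 16. The extensions of 120.2 kb on chromosome 2 and 110.5 kb on chromosome 11 held no protein-coding gene. The GC content of these 10 ranged from 39.5% to 46.1%, and it was above that of the shared side in all but those at *Pde4d* and *Bbx*.

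**Figure D5:**
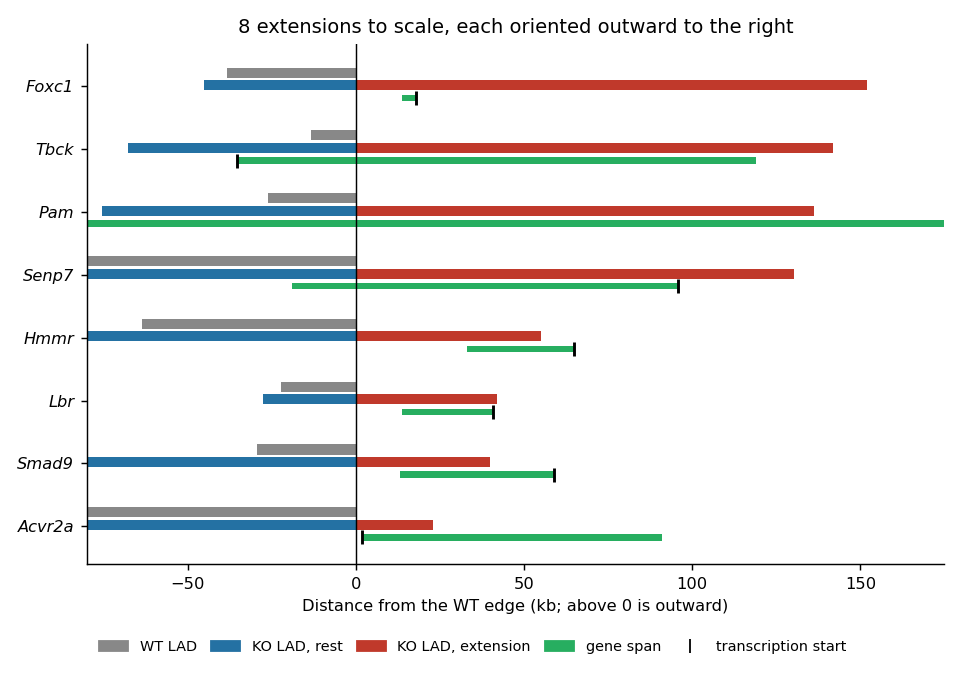
Extensions at 8 genes drawn to scale, each turned so that outward is to the right, against the distance from the WT edge in kb. Gray bars are the WT LAD at that edge, blue and red bars the rest and the extension of the KO LAD, green bars the span of the gene named, and black ticks its transcription start. Bars that reach the left or right border of the plot run on beyond it. *Lbr* and *Foxc1* lie wholly under the red bar, whereas *Hmmr* and *Smad9* start beyond it.

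On the other chromosomes, the gene with the most bases in extensions was *Pip4k2a* on chromosome 2 (57.1% of the span), *Dab1* on 4 (7.54%), *Fbxl13* on 5 (46.2%), *Prickle2* on 6 (32.4%), *Zfp827* on 8 (62.5%), *Xrn1* on 9 (71.2%), *Ehbp1* on 11 (31.0%), *Immp2l* on 12 (15.8%), *Klf12* on 14 (30.5%), *Lrp12* on 15 (96.9%), *Pde10a* on 17 (15.2%) and *Celf4* on 18 (43.1%). On chromosome 7 it was *Fgfr2* with 2.93%, on an annotated span of 3009.1 kb. In *Xrn1*, a 5′ to 3′ exoribonuclease, the extension held the start and 31 of 42 exons, and *Lrp12*, an LDL receptor-related protein, had all 6 exons in one, with none in a WT LAD in either gene. *Celf4*, an RNA-binding protein, had no base in a WT LAD and 79.7% of its span in KO LADs, with 12 of 13 exons in extensions.

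The 201 genes that lay wholly in extensions had a median span of 6.998 kb and a longest of 52.7 kb, and 48 had a single exon. Short spans are built in here, since such a gene must fit into its extension. The 201 genes sat in 173 extensions. A few are named here as examples, picked after the genes had been seen. The transcription factor gene *Nkx2-1* lay in an extension of 31.0 kb, *Pou3f3* in one of 34.1 kb that filled 98.9% of its gap, and *Zic5* in one of 66.7 kb. Other examples were *Plk4*, the kinase of centriole duplication, in an extension of 104.3 kb, *Hmgb2* in one of 51.4 kb and the histone variant gene *H2afz* in one of 81.1 kb.

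Noncoding genes were counted in the same way. Of 1146 lincRNA genes 54 (4.71%) and of 1373 microRNA genes 65 (4.73%) started in an extension, against 3.15% of protein-coding genes and 2.11% of 3928 pseudogenes. On the outer side 54 lincRNA and 53 microRNA genes started, and on the shared side 9 and 16. The microRNAs were clustered, with 35 of the 65 in 2 extensions on chromosome 12, between *Dlk1* and *Dio3*. This is an imprinted domain that carries one of the largest microRNA clusters of the genome. Outside of it 30 microRNA genes (2.28%) started in extensions. In WT a LAD of 51.3 kb (110877991 to 110929266) lay in the middle of the domain. In the KO, LADs ran outward from both of its edges, by 53.5 kb (110824444 to 110877991) over 13 microRNA genes and the whole of *Rtl1*, a retrotransposon-derived imprinted gene, and by 37.3 kb (110929266 to 110966550) over 22 microRNA genes from *Mir379* to *Mir539*. The same WT LAD was kept to 16.9% only, since the 2 KO LADs reached back over it by 0.624 kb and 8.05 kb, so that the KO LADs lay mostly on either side of it. Of the 57 microRNA genes of the domain, 35 were in a KO LAD and 1 in a WT LAD. *Rian*, a noncoding RNA of the domain, went from 38.0% to 63.1% of its span in LADs, whereas *Meg3*, *Mirg* and *Dio3* were in no LAD of either genotype, and *Dlk1* was 92.0% in a KO LAD that was not an extension.

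The mature microRNAs show what these extensions carry. They are from RefSeq (GRCm38.p6), matched by gene symbol, which gave 66 mature sequences for 35 of the 39 microRNA genes with a Mir symbol in extensions. Bases 2 to 8, the seed with which a microRNA recognizes its targets, are in capitals. The pairs that share a seed are shown first, then 4 others of the domain. The 30a and 30c pair, which is not of the domain, lies in an extension on chromosome 1.
miR-379-5p: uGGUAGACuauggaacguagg
miR-1193-5p: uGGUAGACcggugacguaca
miR-379-3p: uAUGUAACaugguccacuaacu
miR-411-3p: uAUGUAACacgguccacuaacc
miR-370-5p: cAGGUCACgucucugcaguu
miR-1193-3p: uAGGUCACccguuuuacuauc
miR-758-5p: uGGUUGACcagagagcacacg
miR-1197-5p: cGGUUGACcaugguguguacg
miR-30a-5p: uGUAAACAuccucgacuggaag
miR-30c-5p: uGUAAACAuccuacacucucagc
miR-127-3p: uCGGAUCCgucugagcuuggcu
miR-136-5p: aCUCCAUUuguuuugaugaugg
miR-494-3p: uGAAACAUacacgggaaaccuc
miR-381-3p: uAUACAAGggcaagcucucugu
The 66 sequences held 61 different seeds, and 5 seeds were shared by a pair. Of the genes behind the pairs of the domain, *Mir379*, *Mir411*, *Mir758*, *Mir1193* and *Mir1197* lay in the extension of 37.3 kb and *Mir370* in that of 53.5 kb.

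A further cluster was the J segments of the T cell receptor beta locus on chromosome 6. In it 14 annotated J segments, 13 of them with a *Trbj* symbol, lay in an extension of 21.1 kb (41474699 to 41495802) of a WT LAD of 11.9 kb. They are 14 of the 88 J segments of the 17 chromosomes (15.9%), against 3.15% of protein-coding genes with their start in an extension. All 14 lie in the same extension, so they stand for a single region. J segments are joined to V and D segments only in lymphocytes.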

How the data were processed

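LADs were mapped by DamID in hepatocytes of both genotypes, pooled over mice. The study's text gives more than 1 time of harvest, of which its methods state 60 h after transduction. The submitters' processing notes name BWA, limma and mm9. According to the study's methods, the authors segmented the Dam-LaminB1 over Dam only signal with DNAcopy and subtracted the LAD lists of the genotypes from each other to obtain DRs. The minimum DR length of 10 kb is taken from the shortest deposited DRs. The values deposited by the authors are interval positions with no signal or score of their own. Software versions of the upstream steps are not given in the sources used here.

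Edges, gaps and flanks were computed from the deposited lists with Python 3.11.15 and numpy 2.4.6, and Wilson intervals from their formula in Python. Sequence on NCBIM37 (the same assembly as mm9) was read with pysam 0.24.0 and samtools 1.23.1, and figures were drawn with matplotlib 3.10.9. Genes are those of GENCODE for this assembly, each counted at 1 start. The edge and overlap steps were tested on simulated intervals. Chromosomes 10, 19, X and Y were left out. Columns of per-sample values not used numbered 0. Members and gene lists were chosen with earlier results of these data known, and of 413 listed genes 410 were found.

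Named genes were those at the 10 longest extensions, list genes that start in an extension, genes of the study's own gene tables, genes at the 3 WT LADs with the most added bases and the 3 longest gaps entered from both sides, and the gene with the most bases in extensions per chromosome. List genes that overlap without a start there, gene-dense extensions, whole-gene examples, microRNAs and J segments were named after their values were seen. Alternatives were other minimum lengths, joined or filtered LADs, all 21 chromosomes, flanks of 10 kb and every transcript start.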

Additional observations from a re-analysis of the deposited data

How the results depend on the processing

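Of the recomputed values, 24 stayed within a range set for each result, 19 moved beyond it and 2 changed sign. For the number of extensions this range was wide, 1190 to 2677.5 around 1785, so staying within it does not mean a stable number. The number was 2618 with a minimum of 5 kb and 1459 without LADs under 20 kb. With LADs joined across gaps of up to 20 and 50 kb it was 1569 and 1243. With a minimum of 20 kb, 884 extensions remained by construction, with a median of 31.4 kb, a ratio of extended to lost edges of 1.38, 35.6% of the gap filled and 15.1 starts per Mb. With a minimum of 5 kb the median was 14.2 kb and the gap filled 25.1%. With LADs joined across gaps of up to 20 kb the median was 26.9 kb, the ratio 1.64 and the gap filled 22.8%, and with gaps of up to 50 kb joined these values were 43.4 kb, 2.23 and 16.5%. Without LADs under 20 kb they were 23.2 kb, 0.987 and 22.9%. Counting every transcript start gave 36.7 starts per Mb. The GC difference between extension and outer side was 0.0806 points with the minimum of 5 kb, 0.0493 and -0.0271 points with LADs joined across gaps of up to 20 and 50 kb, and -0.152 points with flanks of 10 kb, and the cause was not tested. The GC difference to the shared side stayed between 0.686 and 0.81 points in all alternatives run for it. No paired analysis was possible because each genotype has 1 library pair of pooled mice. The lists give no read depth per region, so a faint edge cannot be told from a strong one.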
